A study of Mus musculus with 19 samples.

Results

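The genes described here are 6 genes of steroid hormone signalling, chosen by name out of the 35598 genes counted: Esr1, Pgr and Nr3c1, which encode steroid receptors, Nrip1 and Ncoa3, which encode proteins that receptors recruit, and Greb1, a gene known for its induction by estrogen. They were proposed with earlier results of these data in view, namely that Greb1 and Pgr were lower under the Glud1-deficient label. The difference between the genotype labels is therefore described for these genes without a test, and only their changes between stages were tested.

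Messenger RNA was measured in 19 libraries of primary myoblasts from the hind-limb muscles of mice, the precursors that join to form myotubes with many nuclei. Wild-type (WT) libraries comprised 3 of proliferating myoblasts in growth medium at 24 h, 3 of differentiated myotubes at 48 h and 4 of fused myotubes at 72 h. Libraries labelled Glud1-deficient, called KO-labelled here, comprised 3, 2 and 4 at the same stages, and no other allele or agent is labelled. Glud1 encodes glutamate dehydrogenase of mitochondria. The labels do not give the strain, age or sex of the mice, how Glud1 was altered, or whether replicates are separate animals or cultures, so SDs and p-values describe the spread between these libraries. The deposited file names carry KO for both groups, with a T added for the KO-labelled libraries, whose meaning is not stated. The labels were followed.

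Libraries held 16168131 to 30742634 estimated counts, and levels are given as CPM, the counts of a gene scaled to a common library total. Glud1 did not separate the labels, with means of 189 CPM in WT and 187 CPM in myoblasts of the KO label, 106 and 99.8 CPM in differentiated myotubes, and 135 and 133 CPM in fused myotubes, and its libraries overlapped at every stage. On the deposited scale per length it was lower in KO-labelled libraries, at 139 ± 3.21 (SD, n = 3) against 169 ± 6.10 TPM in myoblasts, so the level of the targeted gene differed on 1 scale and not on the other. The 10 skeletal muscle markers, among them Myod1, Myog and Acta1, were all present. Their summed level was lower in KO-labelled myoblasts, at 2007 to 2074 CPM against 2455 to 2728 CPM in WT, and 7 of the 10 were called lower there. In differentiated and fused myotubes the sums overlapped between the labels. The summed fibroblast markers were lower in KO-labelled differentiated myotubes, at 7.81 to 11.8 CPM against 24.1 to 27.0 CPM, which was mostly Col3a1, while Lum and Dcn were near 0. They were lower without overlap at the other stages too, at 269 to 274 against 287 to 294 CPM in myoblasts and 6.05 to 7.34 against 7.71 to 9.22 CPM in fused myotubes. The summed pericyte and smooth muscle markers were at 43.7 to 49.3 CPM in KO-labelled and 52.3 to 59.2 CPM in WT myoblasts, at 11.02 to 12.3 against 14.4 to 15.2 CPM in differentiated myotubes, and overlapped in fused myotubes. Summed endothelial markers reached at most 7.08 CPM, Schwann cell markers 2.74 CPM, blood and macrophage markers 1.92 CPM and adipocyte markers 0.176 CPM in any library. The endothelial sum was higher in KO-labelled differentiated myotubes, at 6.79 to 7.08 against 5.50 to 6.05 CPM, and overlapped at the other stages. The part of these markers in the results below was not tested. In RNA from whole cultures, fewer cells of a type and less RNA per cell cannot be told apart.

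Steroid receptors are transcription factors that a hormone switches on. They wait in complexes with Hsp90 chaperones, bind DNA as dimers once hormone is bound, and recruit coactivators or corepressors that set the activity of nearby genes. The estrogen receptor encoded by Esr1 is known to induce Pgr, which encodes the progesterone receptor, and Greb1 in estrogen-responsive tissues, and the glucocorticoid receptor encoded by Nr3c1 is known in muscle for the induction of ubiquitin ligases of muscle wasting.

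Promoter sequences were available from RefSeq (build GRCm38.p6) for 4 of the 6 genes, at 7 transcription starts. The windows of Greb1 and Pgr are shown because these genes differed most between the labels. Each is the stretch of up to 250 bases before a start, in lower case, with capitals marking the only match to the hexamer that an estrogen receptor dimer binds in pairs (AGGTCA, or TGACCT on the other strand).
Greb1 upstream start, chr12:16800887-16801136, minus strand: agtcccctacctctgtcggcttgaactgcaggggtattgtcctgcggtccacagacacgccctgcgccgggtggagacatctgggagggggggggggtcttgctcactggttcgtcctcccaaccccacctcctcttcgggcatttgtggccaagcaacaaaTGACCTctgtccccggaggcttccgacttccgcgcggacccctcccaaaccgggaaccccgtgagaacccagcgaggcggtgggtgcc
Greb1 internal start, chr12:16757242-16757489, minus strand: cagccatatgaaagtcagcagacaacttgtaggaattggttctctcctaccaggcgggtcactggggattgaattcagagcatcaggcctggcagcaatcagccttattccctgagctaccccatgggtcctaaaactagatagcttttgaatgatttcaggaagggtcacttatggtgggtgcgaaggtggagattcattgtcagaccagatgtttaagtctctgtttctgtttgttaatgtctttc
Pgr start, chr9:8899583-8899832, plus strand: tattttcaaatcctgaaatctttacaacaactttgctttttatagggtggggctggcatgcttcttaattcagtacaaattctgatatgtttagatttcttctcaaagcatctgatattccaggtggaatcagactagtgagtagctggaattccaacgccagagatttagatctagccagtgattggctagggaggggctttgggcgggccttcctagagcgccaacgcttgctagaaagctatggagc

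Both strands of the 7 windows were searched for the core of the palindromic estrogen response element (GGTCA and TGACC spaced by 3 bases), for its hexamer AGGTCA, for the core shared by glucocorticoid and progesterone response elements (GAACA and TGTTC spaced by 3 bases), and for its hexamer AGAACA. The hexamers overlap the longer motifs, and 1 of the Esr1 windows lies wholly in annotated Esr1 exons. The upstream window of Greb1 held 1 match to the estrogen hexamer, and the other windows held none of the 4 motifs. Of all 32851 promoter windows of that length, 14.0% held the estrogen hexamer, 16.1% the glucocorticoid hexamer, 0.0639% the palindromic estrogen element and 0.0396% the glucocorticoid element. The upstream Greb1 window was rich in G and C (65.2%), and the internal Greb1 window (46.0%) and the Pgr window (43.6%) were not.

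Per length, the receptor genes were expressed at low to moderate levels in these cells. In WT myoblasts the level in TPM, the deposited measure scaled for transcript length, was 10.7 ± 0.544 (SD, n = 3) for Nr3c1, 8.61 ± 1.62 for Greb1, 7.32 ± 0.148 for Esr1, 6.80 ± 0.191 for Ncoa3, 6.74 ± 0.252 for Nrip1 and 0.987 ± 0.113 for Pgr. Ncoa3 and Nrip1 did not differ beyond their spread. In KO-labelled myoblasts Greb1 was below all but Pgr, at 1.10 ± 0.183 TPM (SD, n = 3), and Pgr lay at 0.00255 ± 0.00442 TPM. In WT fused myotubes Nr3c1 led with 17.3 ± 1.84 TPM (SD, n = 4), followed by Nrip1 with 9.91 ± 0.480, Esr1 with 4.73 ± 0.301, Ncoa3 with 2.51 ± 0.314, Greb1 with 0.905 ± 0.130 and Pgr with 0.187 ± 0.0354 TPM.

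**Figure D1:**
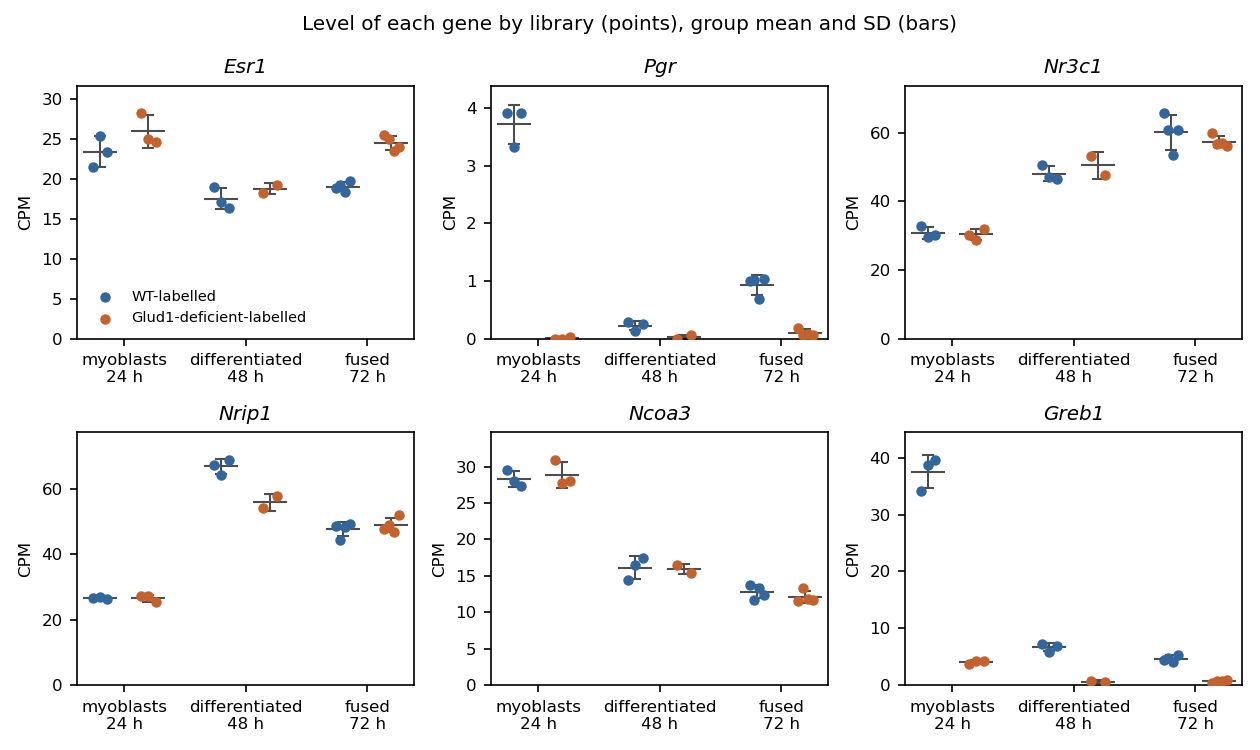
Level of each of the 6 genes in CPM on linear axes from 0, by stage, with 1 point per library, the group mean and SD as bars, WT-labelled libraries in blue and KO-labelled libraries in orange. Greb1 lies lower in every KO-labelled library than in the WT libraries of the same stage, Pgr does so in myoblasts and fused myotubes, Esr1 is higher in KO-labelled fused myotubes, and Nr3c1 and Ncoa3 overlap between the labels at every stage.

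Esr1, which encodes estrogen receptor alpha (ENSMUSG00000019768.16, chromosome 10, 4611593 to 5005614, plus strand, GRCm38), was present in every library. It stood at 21.5, 25.3 and 23.4 CPM in WT myoblasts and at 28.2, 24.96 and 24.5 CPM in myoblasts of the KO label. In differentiated myotubes its level was 18.9, 17.1 and 16.4 CPM under the WT label and at 18.2 and 19.2 CPM under the KO label. The labels overlapped at both of these stages. In fused myotubes its level was 18.9, 19.2, 18.3 and 19.7 CPM under the WT label and at 25.5, 24.9, 23.5 and 24.0 CPM under the KO label, so the labels did not overlap, with a log2 fold change of 0.36 ± 0.063 (SE). At the earlier stages the log2 fold change was 0.15 ± 0.063 and 0.11 ± 0.083. With an offset for the effective length of each gene, the myoblast value was 0.35, and the values at the later stages were 0.18 and 0.40. By group mean the order ran from KO-labelled myoblasts (25.9 CPM), KO-labelled fused (24.5 CPM) and WT myoblasts (23.4 CPM) to WT fused (19.01 CPM), KO-labelled differentiated (18.7 CPM) and WT differentiated myotubes (17.5 CPM). Of the neighbours in that order, only WT myoblasts and WT fused myotubes did not overlap. One protein-coding transcript, Esr1-204, held a mean of 84.5% to 93.9% of the Esr1 counts in each group.

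Pgr, the gene of the progesterone receptor (ENSMUSG00000031870.16, chromosome 9, 8899833 to 8968611, plus strand), held 111, 77 and 117 counts in the 3 WT myoblast libraries, or 3.90, 3.33 and 3.91 CPM. The KO-labelled myoblast libraries held 0, 0 and 1 count. A count of 0 allows up to 3 counts, which is 0.0859 and 0.0982 CPM in those 2 libraries. Every WT myoblast library was far above every KO-labelled one. In differentiated myotubes Pgr was low under both labels, with 6, 3 and 7 counts in WT and 0 and 1 count in KO-labelled libraries, where the 0 allows 0.160 CPM. In fused myotubes WT libraries held 22, 16, 11 and 25 counts (1.00, 1.02, 0.678 and 1.03 CPM), and KO-labelled libraries held 3, 1, 2 and 1 count (0.188, 0.0556, 0.0852 and 0.0666 CPM). The labels did not overlap in myoblasts or fused myotubes. In differentiated myotubes the counts did not overlap, but the 0.160 CPM that the count of 0 allows lies above the lowest WT library, at 0.131 CPM, so a separation was not shown at this depth.

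The pooled Pgr level was 359-fold higher in WT than in KO-labelled myoblasts, from 305 counts against 1. It was 8.34-fold higher in differentiated myotubes (16 counts against 1), where a separation was not shown. In fused myotubes it was 9.80-fold higher (74 counts against 7). These folds are a description, since Pgr was chosen with this difference known. Those in myoblasts and differentiated myotubes rest on 1 KO-labelled count each, so their size is poorly known. Pooled counts do not show the spread between libraries, and reads copied by PCR are not independent molecules. The fitted log2 fold change, which depends on a prior count where counts are this low, moved in differentiated myotubes from -2.83 to -1.97 without replicate 1 and to -5.39 without replicate 2 of the KO-labelled libraries. In myoblasts it moved from -7.88 to -7.41, -7.49 and -9.40 without replicate 1, 2 or 3 of the KO-labelled libraries. In WT myoblasts the protein-coding transcript Pgr-204 held 78.7% ± 7.21 (SD, n = 3) of the Pgr counts, and Pgr-203, a transcript with a retained intron, held 21.3% ± 7.21. Of the 2 protein-coding genes tested that lie closest to Pgr, Arhgap42 (25.7 kb away) was at a log2 fold change of -0.19 ± 0.069, -0.54 ± 0.12 and -0.06 ± 0.072 (SE) in myoblasts, differentiated and fused myotubes, and Cep126 (766 kb away) was at 0.22 ± 0.21, -0.50 ± 0.43 and 0.09 ± 0.42.

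Nr3c1, which encodes the glucocorticoid receptor (ENSMUSG00000024431.15, chromosome 18, 39410545 to 39519421, minus strand), had nearly the same level under both labels. It was at 32.6, 29.6 and 30.01 CPM under the WT label and at 30.2, 28.8 and 31.9 CPM in myoblasts of the KO label. Differentiated myotubes held 50.5, 47.1 and 46.5 CPM in WT and 53.3 and 47.7 CPM under the KO label. Fused myotubes held 65.7, 60.7, 53.3 and 60.7 CPM in WT and 59.7, 56.7, 56.8 and 56.1 CPM under the KO label. The labels overlapped at every stage, and the log2 fold changes were -0.02 ± 0.063, 0.07 ± 0.068 and -0.07 ± 0.052 (SE). The order of the levels followed the stages, with both myoblast groups lowest and both fused groups highest. Nr3c1-204 was the main transcript, with a mean of 73.1% to 84.9% of the counts in each group.

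Nrip1 encodes RIP140, a corepressor of ligand-bound receptors that is known in muscle as a brake on oxidative metabolism (ENSMUSG00000048490.14, chromosome 16, 76287400 to 76373827, minus strand). It was at 26.8, 26.9 and 26.2 CPM under the WT label and 27.2, 27.2 and 25.4 CPM in myoblasts of the KO label, with overlap. In differentiated myotubes its level was 67.4, 64.4 and 69.0 CPM under the WT label and at 54.1 and 57.8 CPM under the KO label, without overlap, at a log2 fold change of -0.26 ± 0.053 (SE). Fused myotubes again overlapped, with 48.8, 44.4, 48.3 and 49.2 CPM in WT and 47.8, 48.9, 46.8 and 51.9 CPM under the KO label. WT differentiated myotubes were thus the highest group and KO-labelled differentiated myotubes the next, and the fused groups lay between these and the myoblasts. Nrip1-202 held a mean of 91.6% to 97.2% of the counts in each group.

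Ncoa3 encodes SRC-3, a coactivator of the p160 family that binds several hormone-bound receptors (ENSMUSG00000027678.17, chromosome 2, 165992636 to 166073242, plus strand). It was at 29.5, 28.1 and 27.3 CPM under the WT label and at 30.97, 27.7 and 28.0 CPM in myoblasts of the KO label. Differentiated myotubes held 14.4, 16.5 and 17.5 CPM in WT and 16.4 and 15.4 CPM under the KO label, and fused myotubes 13.8, 11.7, 13.3 and 12.4 CPM against 11.5, 13.3, 11.8 and 11.7 CPM. The labels overlapped at every stage, with log2 fold changes of 0.03 ± 0.063, -0.03 ± 0.088 and -0.08 ± 0.076 (SE), and these were 0.19, -0.28 and 0.06 with the effective-length offset. Ncoa3-202 and Ncoa3-201 shared the counts, at 53.6% ± 3.74 and 46.1% ± 3.66 (SD, n = 3) in WT myoblasts, 34.7% ± 0.867 and 63.5% ± 0.755 in WT differentiated myotubes, and 43.7% ± 5.84 and 56.1% ± 6.34 (SD, n = 4) in WT fused myotubes. Ncoa3 shares 154 of its 7895 exon bases (1.95%) with Sulf2 on the opposite strand, and the sources used here do not say if strand was used in counting.

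Greb1, a gene best known as an early estrogen-induced gene of breast cancer cells (ENSMUSG00000036523.16, chromosome 12, 16670615 to 16800886, minus strand), was at 34.2, 38.7 and 39.7 CPM in WT myoblasts and at 3.70, 4.16 and 4.25 CPM in myoblasts of the KO label. In differentiated myotubes its level was 7.30, 5.88 and 6.79 CPM under the WT label and at 0.749 and 0.472 CPM under the KO label. In fused myotubes its level was 4.34, 4.82, 4.01 and 5.36 CPM under the WT label and at 0.376, 0.723, 0.639 and 0.799 CPM under the KO label. The labels did not overlap at any stage. The log2 fold changes were -3.22 ± 0.094, -3.44 ± 0.23 and -2.87 ± 0.19 (SE), which is 9.31-fold, 10.8-fold and 7.30-fold lower. By group mean the order was WT myoblasts, WT differentiated, WT fused, KO-labelled myoblasts, KO-labelled fused and KO-labelled differentiated myotubes. WT fused and KO-labelled myoblasts overlapped, and so did the KO-labelled fused and differentiated myotubes.

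The size of the Greb1 difference depended on which transcripts its counts were given to. With an offset for effective length, which follows the estimated transcript mix, the log2 fold change was -2.95 in myoblasts, -2.802 in differentiated and -0.99 in fused myotubes. The KO-labelled fused libraries pooled only 46 Greb1 counts, and the KO-labelled differentiated libraries 23. The antisense gene Gm48140, which overlaps Greb1, held at most 2 counts in any library. E2f6, 10.1 kb beyond the upstream start of Greb1, was at a log2 fold change of -0.16 ± 0.041, 0.20 ± 0.048 and -0.03 ± 0.036 (SE) in the 3 stages. Lpin1, 59.6 kb beyond the other end, was at -0.27 ± 0.47, -1.11 ± 0.65 and 1.03 ± 0.33.

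Most Greb1 counts were given to 2 coding transcripts that differ at their starts, to which the promoter windows above belong. Greb1-212 (8058 bases, 35 exons) starts at 16800684, just inside the RefSeq upstream start, and Greb1-201 (7940 bases, 33 exons) starts at 16757241, 43.4 kb further in. They share 7938 bases. Only 120 bases (1.49%) in exons 1 and 2 are particular to Greb1-212, and 2 bases to Greb1-201, so their split rests on few reads. In WT myoblasts Greb1-212 was estimated at 24.0, 23.9 and 29.9 CPM and Greb1-201 at 8.65, 13.3 and 8.97 CPM. Greb1-212 thus held 69.0% ± 6.92 (SD, n = 3) of the Greb1 counts there and Greb1-201 held 27.5% ± 6.22. As shares of the deposited TPM the values were 52.8% and 21.2%, since short transcripts weigh more on that scale.

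Outside WT myoblasts, Greb1-212 was listed at 0, or at a value that rounds to 0, in most libraries. It was at 3.37, 0 and 2.49 CPM in WT differentiated myotubes and at 0, 0, 0 and 2.89 CPM in WT fused myotubes. KO-labelled myoblasts held 0, 0 and 2.28 CPM, KO-labelled differentiated myotubes 0 and 0 CPM, and KO-labelled fused myotubes 0, 0, 0 and 0.574 CPM. Replicates of the same group thus ranged from 0% to 53.6% in KO-labelled myoblasts and from 0% to 54.0% in WT fused myotubes. Greb1-201 was at 3.63, 4.08 and 1.84 CPM in myoblasts of the KO label. The mean of Greb1-201 was 3.24-fold higher in WT than in KO-labelled myoblasts and that of Greb1-212 34.1-fold higher, the second resting on 1 KO-labelled library. In differentiated myotubes the mean of Greb1-201 was 9.58-fold higher in WT. In fused myotubes the order was reversed, with Greb1-201 14.6-fold and Greb1-212 5.04-fold higher in WT, the second resting on 1 library of each label. Of the 12 Greb1 transcripts in the files, 6 held at least 5% of the counts in some group.

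**Figure D2:**
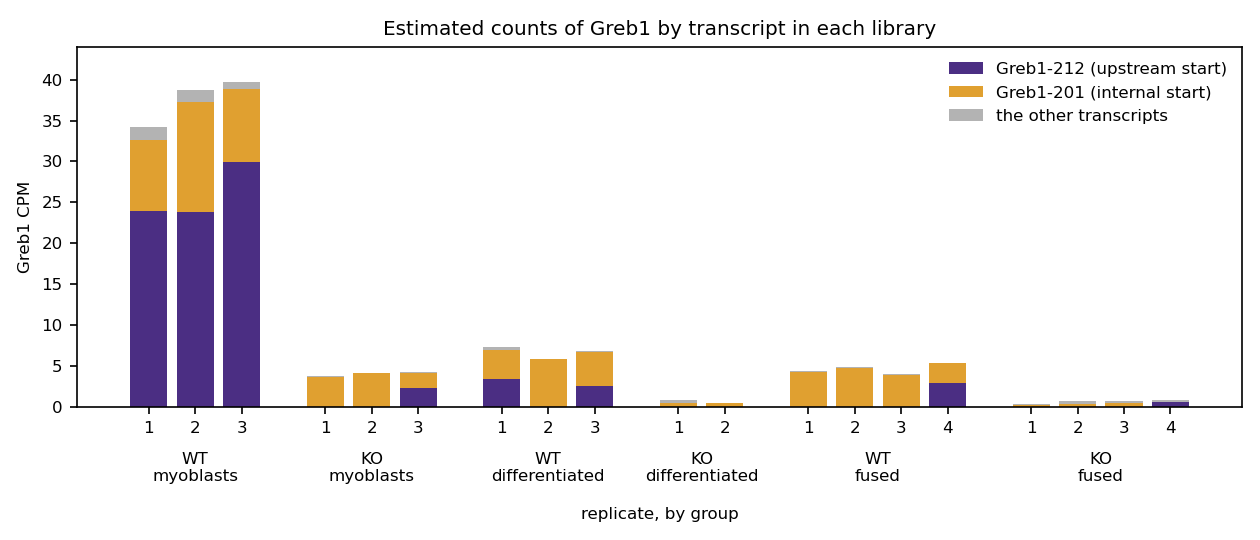
Greb1 level in CPM in each of the 19 libraries, as stacked bars from 0 that divide the estimated counts into Greb1-212 (upstream start, purple), Greb1-201 (internal start, yellow) and the other transcripts (grey). The WT myoblast bars reach 34.2 to 39.7 CPM and are mostly Greb1-212, while in the other groups Greb1-212 is present in some replicates and at 0 in others, or, in KO-labelled differentiated myotubes, at 0 in both.

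The change between stages was tested within each label. The p-values come from edgeR's quasi-likelihood test, adjusted by the Benjamini-Hochberg method over the 15123 genes that passed the count filter, and "called" means an adjusted p under 0.05. From WT myoblasts to WT differentiated myotubes all 6 genes were called, 2 higher and 4 lower, where 85.0% of all genes tested were called. From WT differentiated to fused myotubes 5 of 6 were called, 2 higher and 3 lower, beside 75.1% of all genes. In KO-labelled libraries 5 of 6 were called at the first step, 2 higher and 3 lower, beside 83.7% of all genes. At the second step 4 of 6 were called, 2 in each direction, beside 70.2%, and only 2 of 6 without replicate 2 of the KO-labelled differentiated myotubes. With a filter at a mean of at least 1 CPM, which leaves Pgr out, 5 and 4 genes were called at the WT steps. These shares are near those of all genes, so they say little about these 6 genes in particular.

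Nr3c1 rose at each step under both labels. In WT its log2 fold change was 0.64 ± 0.062 (SE) at differentiation (edgeR's quasi-likelihood test, adjusted p = 2.72e-10) and 0.33 ± 0.056 at fusion (adjusted p = 7.94e-06). In KO-labelled libraries it was 0.74 ± 0.069 (adjusted p = 1.62e-10) and 0.18 ± 0.065 (adjusted p = 0.0146). The last call was lost without replicate 2 of the KO-labelled differentiated myotubes (log2 0.11, adjusted p = 0.250) and in the DESeq2 test (adjusted p = 0.0585), with a range over the alternatives of 0.00211 to 0.250.

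Nrip1 rose at differentiation and fell back in part at fusion. In WT the changes were 1.33 ± 0.049 and -0.49 ± 0.044 on the log2 scale (SE, edgeR's quasi-likelihood test, adjusted p = 1.42e-19 and 1.33e-10). In KO-labelled libraries they were 1.07 ± 0.055 and -0.20 ± 0.052 (adjusted p = 3.27e-16 and 0.00149). The last of these was lost with the effective-length offset (adjusted p = 0.136) and without replicate 2 of the KO-labelled differentiated myotubes (log2 -0.15, adjusted p = 0.0632), with a range over the alternatives of 0.000176 to 0.136.

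Ncoa3 fell at each step. Its log2 fold changes were -0.80 ± 0.069 and -0.34 ± 0.075 in WT (SE, edgeR's quasi-likelihood test, adjusted p = 2.64e-11 and 2.39e-04), and -0.86 ± 0.081 and -0.39 ± 0.089 in KO-labelled libraries (adjusted p = 1.88e-10 and 3.48e-04). With the effective-length offset the last value was -0.27 and was not called (adjusted p = 0.169, the highest over the alternatives, the lowest being 5.67e-05).

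Esr1 fell at differentiation under both labels, with log2 fold changes of -0.42 ± 0.068 in WT and -0.47 ± 0.078 in KO-labelled libraries (SE, edgeR's quasi-likelihood test, adjusted p = 2.48e-06 and 3.83e-06). At fusion it rose in KO-labelled libraries by 0.38 ± 0.078 (adjusted p = 1.03e-04), while in WT the change of 0.13 ± 0.068 was not called (adjusted p = 0.0860). Without replicate 1 of the WT differentiated myotubes the WT change was 0.18 and was called (adjusted p = 0.0289, range over the alternatives 0.0289 to 0.420). The difference between the 2 labels was not tested, since it uses the contrast known when the genes were chosen.

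Of the 6 genes, Pgr in WT and Greb1 under both labels fell most at differentiation. Greb1 changed by -2.49 ± 0.091 on the log2 scale in WT and by -2.71 ± 0.24 in KO-labelled libraries (SE, edgeR's quasi-likelihood test, adjusted p = 1.29e-19 and 5.85e-11). At fusion it changed by a further -0.51 ± 0.11 in WT (adjusted p = 2.68e-04), a call lost with the effective-length offset (log2 -0.38, adjusted p = 0.184, range over the alternatives 2.88e-05 to 0.184). In KO-labelled libraries the fusion step was at 0.06 ± 0.36 and was not called (adjusted p = 0.891), but with the offset it was 1.44 and was called (adjusted p = 0.0474, range over the alternatives 0.0474 to 0.992). Pgr in WT fell by 4.04 ± 0.28 and then rose by 2.07 ± 0.34 on the log2 scale (adjusted p = 2.60e-13 and 5.69e-06), a rise from 16 to 74 pooled counts. Pgr passed the count filter through WT myoblasts and WT fused myotubes, and was near the floor in WT differentiated myotubes. A call in WT could thus hardly come out other than lower at the first step and higher at the second. In KO-labelled libraries Pgr was too sparse for a fold at the first step, with 1 pooled count at each stage, and the 7 counts at fusion were not called against it (adjusted p = 0.199).

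**Figure D3:**
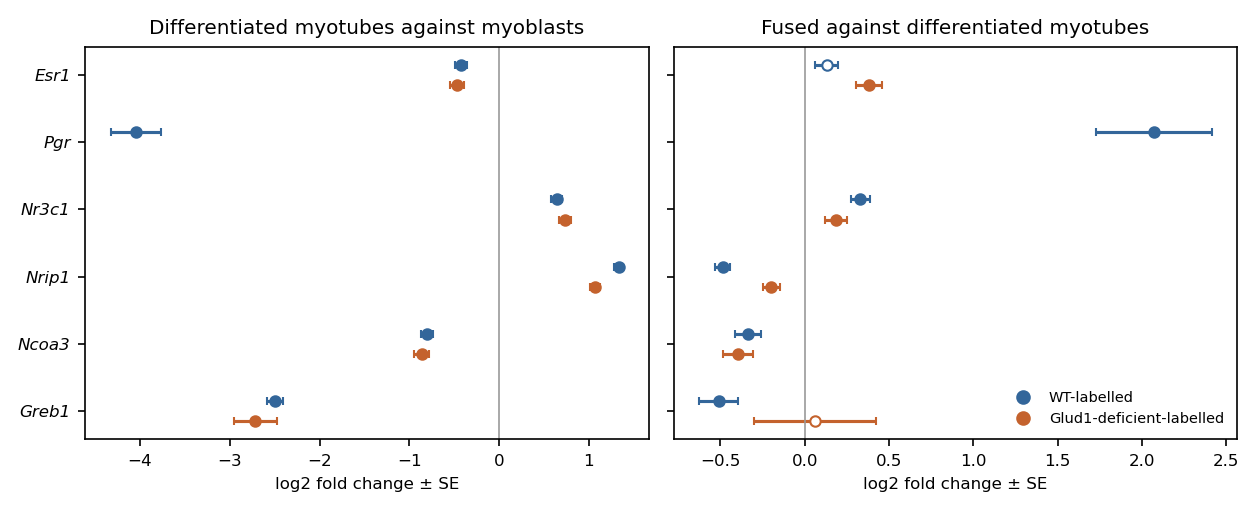
Log2 fold change with SE of each of the 6 genes between stages, within the WT label (blue) and the KO label (orange), with filled points for changes called at an adjusted p under 0.05 and open points for the rest. Nr3c1 and Nrip1 lie right of 0 and Ncoa3, Esr1 and Greb1 left of 0 at differentiation under both labels, and Pgr is drawn for WT only because the KO-labelled libraries held 1 count at each of these 2 stages.

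Other genes of these pathways were taken from 7 lists chosen with earlier results of these data known. The lists name 132 genes besides the 6, of which 131 were in the files and 106 were tested between the labels with the same test. In myoblasts 27 of the 106 were called, beside 11.6% of all genes tested. In differentiated myotubes 38 were called, beside 25.2%, and in fused myotubes 28, beside 13.0%. The myoblast count was 10 with the effective-length offset, 13 without replicate 3 of the WT or replicate 1 of the KO-labelled myoblasts and 16 without replicate 3 of the KO-labelled myoblasts. The fused count was 11 with the offset. These counts are a description, and nothing particular to the lists is drawn from them.

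Among the other steroid receptors and related receptors, 2 of 9 were called in myoblasts, both lower, 5 in differentiated myotubes (2 higher, 3 lower) and 4 in fused myotubes (2 higher, 2 lower). The estrogen-related receptors, orphan relatives that do not bind estrogen, moved in different directions. Esrrb was at 29.2, 27.3, 26.6 and 25.4 CPM under the WT label and 19.4, 19.4, 20.2 and 17.5 CPM in fused myotubes of the KO label, at -0.50 ± 0.069. Esrrg was at 5.07, 6.36 and 5.91 CPM in WT and higher, at 9.25 and 8.39 CPM, in KO-labelled differentiated myotubes, at 0.60 ± 0.12. None of these groups overlapped between the labels.

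Coregulators were called for 5 of 26 genes in myoblasts (4 higher, 1 lower), 6 in differentiated myotubes (2 higher, 4 lower) and 4 in fused myotubes, all lower. The largest fall among them in fused myotubes was Safb2, a scaffold attachment factor known as a corepressor of the estrogen receptor, at -0.35 ± 0.077 (log2, SE), from 25.5 ± 1.67 to 20.3 ± 1.43 CPM (SD, n = 4 each). Ncoa1, a p160 relative of Ncoa3, was at -0.25 ± 0.046 in differentiated myotubes, from 168 ± 8.55 (SD, n = 3) to 142 ± 2.801 CPM (SD, n = 2), and that call was lost with the effective-length offset, at -0.23. Receptor chaperones were called for 3 of 13 genes in myoblasts, all higher, 3 in differentiated myotubes (1 higher, 2 lower) and 1 in fused myotubes. That 1 was Hsp90aa1, an Hsp90 gene, at -0.11 ± 0.037 (adjusted p = 0.0450, edgeR's quasi-likelihood test), which was lost in 13 of 27 alternatives at log2 values of -0.12 to -0.08, with a range of the adjusted p of 0.0132 to 0.174. These include leaving out replicate 1, 2 or 4 of the WT or of the KO-labelled fused myotubes, or replicate 2 or 3 of the KO-labelled myoblasts. Of the 3 myoblast calls, that of Fkbp5 was lost in 13 alternatives, at log2 values of 0.09 to 0.16. That of Ppid was lost with the effective-length offset (0.21) and without replicate 3 of the WT myoblasts (0.14). Bag1, a partner of Hsp70, rose from 254, 246 and 221 CPM in WT to 347 and 322 CPM in differentiated myotubes of the KO label, at 0.48 ± 0.055.

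**Figure D4:**
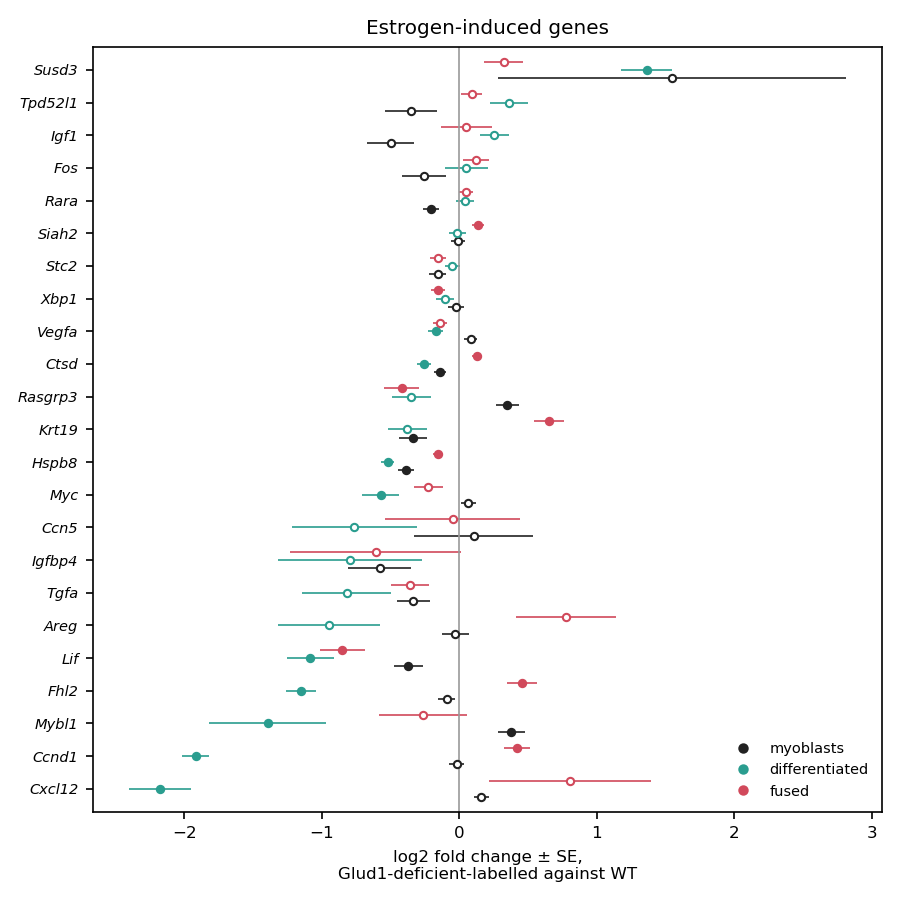
Log2 fold change with SE, KO-labelled against WT, of the 23 tested estrogen-induced genes other than the 6 genes of the report, in myoblasts (black), differentiated myotubes (green) and fused myotubes (red), with filled points for called changes. Of the 10 filled points of differentiated myotubes 9 lie left of 0, and the filled points of fused myotubes lie on both sides.

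Of 32 other genes known to be induced by estrogen, 23 were tested. In myoblasts 7 were called, 2 higher and 5 lower, with a median log2 fold change of -0.09 over the 23, beside 0.01 over all genes. In differentiated myotubes 10 were called, 1 higher and 9 lower, with a median of -0.38 beside -0.01. In fused myotubes 9 were called, 5 higher and 4 lower, with a median of 0.05 beside -0.01.

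The largest falls in differentiated myotubes were Cxcl12, a chemokine, and Ccnd1, which encodes cyclin D1. Cxcl12 was at 7.68, 4.79 and 6.65 CPM under the WT label and at 0.856 and 1.94 CPM under the KO label, at -2.18 ± 0.22 (log2, SE). Without replicate 2 of the KO-labelled libraries it was at -2.89, and without replicate 1 at -1.71. Ccnd1 was at 48.6, 39.4 and 42.3 CPM under the WT label and at 10.5 and 12.5 CPM under the KO label, at -1.91 ± 0.098. Both genes fell steeply from myoblasts under each label, with WT log2 changes of -5.57 for Cxcl12 and -4.77 for Ccnd1. Susd3, known in breast cancer cells for induction by estrogen, went the other way, with 2.18, 1.61 and 2.01 CPM in WT and 5.03 and 4.93 CPM in differentiated myotubes of the KO label.

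Hspb8, a small heat shock protein, was called lower at all 3 stages, at -0.39 ± 0.057, -0.52 ± 0.047 and -0.15 ± 0.035 (log2, SE). In myoblasts it was at 24.8, 22.0 and 23.1 CPM under the WT label and at 17.8, 17.5 and 18.2 CPM under the KO label. Lif, a cytokine of the interleukin 6 family, was also called lower at all 3 stages, at -0.37 ± 0.11, -1.08 ± 0.17 and -0.85 ± 0.16, though with the effective-length offset its calls in myoblasts and fused myotubes were lost, at -0.45 and -0.38. The myoblast call was also lost without replicate 1 or 2 of the WT or any replicate of the KO-labelled myoblasts, and in the DESeq2 test (-0.39, adjusted p = 0.0536). The adjusted p ranged from 0.00960 to 0.324 over the alternatives (edgeR's quasi-likelihood test and DESeq2). In fused myotubes Krt19, a keratin, was higher at 0.65 ± 0.11, with 3.38, 4.31, 4.56 and 3.71 CPM in WT and 6.65, 6.45, 5.83 and 5.93 CPM under the KO label. Fhl2, a LIM domain coregulator, was higher at 0.46 ± 0.11 there and lower in differentiated myotubes at -1.15 ± 0.11.

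Of 10 genes known to be induced by progesterone, 6 were tested. In myoblasts 2 were called, of which Wnt4, a secreted ligand, was lower, with 2.85, 2.81 and 2.81 CPM in WT and 1.17, 0.753 and 1.31 CPM under the KO label, at -1.38 ± 0.16 (log2, SE). The other was Nr2f2, an orphan nuclear receptor, higher at 0.20 ± 0.058, a call lost without replicate 1 or 2 of either label's myoblasts (0.15 to 0.20), with the effective-length offset (0.16) and in the DESeq2 test (0.18). In differentiated myotubes 0 were called by edgeR's quasi-likelihood test and 0 by DESeq2, with 2 at an unadjusted p under 0.05. In fused myotubes Lrp2, an endocytic receptor, was called lower (-0.74 ± 0.16) and Hsd11b2, which inactivates glucocorticoids, higher (0.85 ± 0.25). Both calls were lost with the effective-length offset, at -0.67 and 0.83, and that of Hsd11b2 also without replicate 4 of the WT (0.67) or replicate 3 of the KO-labelled fused libraries (0.78). Wnt4 was not called at the later stages, at 0.21 and 0.20.

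Genes induced by glucocorticoids were called for 7 of 23 in myoblasts (2 higher, 5 lower), 11 in differentiated myotubes (2 higher, 9 lower) and 6 in fused myotubes (4 higher, 2 lower). Mstn, which encodes the muscle growth inhibitor myostatin, was at 5.56, 6.18 and 5.51 CPM under the WT label and 2.95, 3.44 and 3.63 CPM in myoblasts of the KO label, at -0.78 ± 0.099 (log2, SE). Of the ubiquitin ligase genes of muscle wasting, Fbxo32 (atrogin-1) was called lower at all 3 stages, and Trim63 (MuRF1) was called lower in myoblasts and fused myotubes (-0.51 ± 0.12 and -0.10 ± 0.035) and higher in between. The fused call of Trim63 (edgeR's quasi-likelihood test, adjusted p = 0.0499) was lost in 22 of 27 alternatives, DESeq2 included, with a range of 0.0344 to 0.170 and log2 values of -0.12 to -0.08 where it was lost. Its myoblast call was lost without replicate 2 of the WT (log2 -0.46) or replicate 1 or 3 of the KO-labelled myoblasts (-0.50 and -0.48), with a range of 0.00926 to 0.0665 for the adjusted p of edgeR and DESeq2. Trim63 was higher in KO-labelled differentiated myotubes, at 95.8 and 92.9 CPM against 75.6, 78.3 and 80.8 CPM, or 0.27 ± 0.044. Fbxo32 was lower in KO-labelled fused myotubes, at 45.0, 55.0, 53.1 and 53.1 CPM against 67.8, 63.3, 63.3 and 70.8 CPM, or -0.36 ± 0.053. Pdk4, a kinase that restrains pyruvate use, was higher there, at 161, 170, 161 and 155 CPM against 126, 126, 122 and 132 CPM, or 0.35 ± 0.037. Ddit4, an inhibitor of mTOR signalling, was lower in differentiated myotubes at -0.47 ± 0.082.

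Steroid synthesis and conversion was represented by 9 tested genes of 18 in the files, and Cyp11a1, Cyp17a1 and Cyp19a1, which encode enzymes of hormone synthesis, were too low to be tested. In myoblasts 2 of the 9 were called, both lower, in differentiated myotubes 4 (1 higher, 3 lower) and in fused myotubes 3 (2 higher, 1 lower). Cyp11b1, an enzyme of glucocorticoid synthesis in the adrenal gland, was at 1.41, 2.07 and 0.969 CPM under the WT label and 0.115, 0.0654 and 0.164 CPM in myoblasts of the KO label, and at 0 in every fused library. It passed the count filter through the WT myoblasts, so a call in myoblasts could only be lower, and its count among the 2 is no support for a direction of the list. Hsd11b1, which regenerates active glucocorticoid inside cells, was higher in KO-labelled differentiated myotubes, at 5.78 and 5.14 CPM against 3.32, 3.79 and 3.59 CPM, and in KO-labelled fused myotubes, at 18.7, 16.3, 17.6 and 17.8 CPM against 12.8, 13.5, 13.1 and 11.2 CPM. The log2 fold changes were 0.61 ± 0.14 and 0.49 ± 0.074 (SE). In myoblasts it was lower at -0.37 ± 0.088, a call lost without replicate 3 of the WT myoblasts (log2 -0.29, adjusted p = 0.0761, range over the alternatives 0.00192 to 0.0761, edgeR's quasi-likelihood test).

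**Figure D5:**
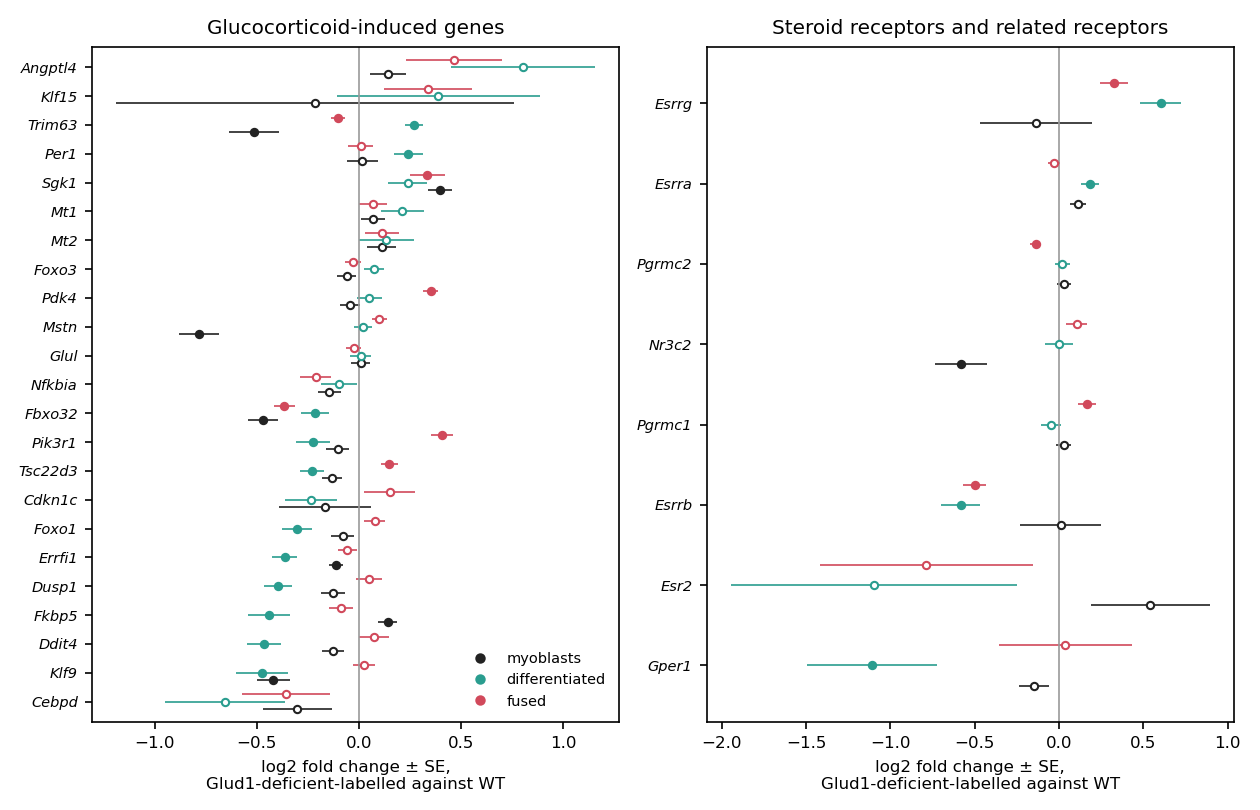
Log2 fold change with SE, KO-labelled against WT, of the 23 tested glucocorticoid-induced genes (left) and the other steroid and related receptors (right, 1 of the 9 not shown), in myoblasts (black), differentiated myotubes (green) and fused myotubes (red), with filled points for called changes. Filled points lie on both sides of 0 in each panel, with Trim63 right of 0 and Fbxo32 left of 0 in differentiated myotubes.

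Each of the 6 genes was also set beside other tested genes by the Pearson correlation of log2 CPM over the 19 libraries. Only genes with a mean of at least 1 CPM were ranked, without those named as predicted genes, clones or pseudogenes. The correlations are given as a description, since the libraries share stages and labels. The genes most like Greb1 were Tanc1 (r = 0.955), Syt7 (0.955), Sost (0.933), Ttc28 (0.913) and Lrrc8b (0.872). Sost, which encodes a secreted Wnt inhibitor, had means of 7.56 CPM in WT and 1.55 CPM in myoblasts of the KO label. The genes most like Pgr were Tmem86a (0.892), Gas6 (0.837) and Lhx8 (0.836), and Tmem86a had means of 18.1 and 1.59 CPM in myoblasts. Esr1 was most like Nfib, Hddc2 and Ntan1 (0.895 to 0.905). For Nr3c1 these were Mmadhc, Rab14 and Alkbh5 (0.986 to 0.987), for Nrip1 Tm7sf2, Fosl2 and Ppm1e (0.987 to 0.988), and for Ncoa3 Stac2, Tbl1x and Supt16 (0.989 to 0.991). Among the 6 genes themselves the most alike pair was Nr3c1 and Nrip1 (r = 0.805), followed by Greb1 and Pgr (r = 0.757). Both Greb1 and Pgr were known to be lower under the KO label when chosen, so a positive value for that pair carries no further information. Ncoa3 was opposed to Nr3c1 (r = -0.968) and Nrip1 (r = -0.801), and Esr1 showed little likeness to Greb1 (r = -0.065) or Pgr (r = -0.139).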

How the data were processed

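Transcript abundance was deposited per library by the authors as kallisto tables of estimated counts, effective length and TPM. The submitters' processing notes name bcl2fastq 2.20, fastp 0.20.0, kallisto 0.46.1, edgeR 3.36 and the build GRCm38.p6, without their roles or settings. Deposited estimated counts were summed per gene through GENCODE M21, which matched 121018 of 121843 transcripts, and rounded. The 825 unmatched transcripts held 0.255% to 0.507% of the counts and were left out of genes. The deposited TPM were used for levels per length only.

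Genes were filtered with filterByExpr, scaled by TMM and fitted over all 19 libraries in 6 groups with edgeR 4.0.16 (R 4.3.3) using the quasi-likelihood test. P-values were adjusted by Benjamini-Hochberg over 15123 genes, with a threshold of 0.05. SE is the log2 fold change divided by the root of the F statistic. CPM use the TMM-scaled totals. The fit was tested on simulated data. Alternatives were DESeq2 1.42.0, other scalings and filters, an effective-length offset, only the libraries compared, a replicate block and leaving out each library. Named genes are the 6 genes, Glud1, Greb1 transcripts with at least 5% of its counts in a group, the up to 2 highest and 2 lowest called genes of each list and stage with at least 1 CPM in the higher group, and the 3 genes (5 for Greb1) most correlated with each gene. Neighbours were chosen by position. The 6 genes and all lists were chosen with earlier results of these data known. Totals per library set the precision, and replicates differed by more than counting noise (2.07 to 7.06 for the ratio of chi-square to its degrees of freedom). One gene of the receptor list is counted but not reported here by name.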

Additional observations from a re-analysis of the deposited data

Results flagged for a closer look

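Within groups of 4 libraries, 2 of the 12 gene and group combinations tested held a library far from the others, where chance gives about 1 in 20. Pgr was at 0.678 CPM in the lowest WT fused library, and Ncoa3 at 13.3 CPM in the highest KO-labelled fused library.

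For 9 pathway genes the label effect was called in opposite directions at 2 stages, in 11 pairs of stages. The difference between the stages was then called in each by edgeR's quasi-likelihood test, which restates how the genes were picked and adds no evidence, so the values are a description. Some of the calls they rest on were lost in other settings, namely that of Fkbp5 in myoblasts in 13 (DESeq2 and the replicate block among them), of Rasgrp3 in fused myotubes in 8 (DESeq2 among them) and in myoblasts in 2, of Mybl1 in myoblasts in 3 and of Trim63 in fused myotubes in 22 and in myoblasts in 3. Those of Hsd11b1 in myoblasts, Fkbp5 in differentiated myotubes and Pik3r1 in fused myotubes were lost in 1 each. For the calls of Krt19 in myoblasts, Ccnd1 in fused myotubes, and Fhl2, Mybl1 and Pik3r1 in differentiated myotubes, the other settings were not compared. From differentiated to fused myotubes the effect on Ccnd1 moved by 2.34 ± 0.14 (log2, SE), as Ccnd1 went on falling in WT (-2.12) while its change of 0.21 in KO-labelled libraries was not called. Over the same step the effect on Fhl2 moved by 1.61, that on Pik3r1 by 0.63 and that on Trim63 by -0.37. From myoblasts to differentiated myotubes the effect on Hsd11b1 moved by 0.98, on Trim63 by 0.78, on Fkbp5 by -0.58 and on Mybl1 by -1.77. From myoblasts to fused myotubes it moved by 0.86 for Hsd11b1, 0.99 for Krt19 and -0.77 for Rasgrp3.

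With the effective-length offset the differences of Fkbp5 (-0.31), Pik3r1 (0.40) and Rasgrp3 (-0.82, no smaller than without it) were no longer called, and that of Mybl1 was lost without replicate 2 of the KO-labelled differentiated myotubes (log2 -1.30, edgeR adjusted p = 0.0882, range over the alternatives 0.000129 to 0.0882), and was -2.47 without replicate 1. The cause was not tested.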

How the results depend on the processing

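The count of pathway genes called between the labels was 10 in myoblasts and 11 in fused myotubes with the effective-length offset, against 27 and 28. Leaving out each library gave 13 to 33 in myoblasts, 28 to 39 in differentiated and 20 to 31 in fused myotubes, and 2 to 4 of the 6 genes called between KO-labelled differentiated and fused myotubes. Ncoa2 in differentiated myotubes reversed to 0.0135 on the log2 scale with the offset. The cause was not tested. Of the label effects of named pathway genes, over all settings, 1420 values kept their call, 141 lost it and 1 reversed. By gene, 4 of 18 calls in myoblasts, 10 of 21 in differentiated and 7 of 19 in fused myotubes held in every alternative that gave a value, and 14, 11 and 12 were lost in at least 1. Of the stage tests of the 6 genes, 634 kept their call, 2 gained it and 6 lost it. Replicate numbers are shared between groups but did not pair the libraries of the 2 labels within a stage (correlations of -0.0506 to 0.0292 over 9 same-numbered pairs). Pairing between stages, where the 6 genes were tested, was not assessed in this way. With a replicate block 25, 36 and 25 pathway genes were called, and 6, 5, 5 and 4 of the 6 genes. A fit without 1 KO-labelled differentiated library leaves a lone library, assumed to vary like the other groups. Pgr and Greb1 in KO-labelled myotubes are limited by depth.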
